A study of Mus musculus with 37 samples.

Results

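The prostanoid receptors and synthases are 10 genes, taken as the genes of the count files that carry the symbols Ptgir, Ptger1, Ptger2, Ptger3, Ptger4, Ptgfr and Tbxa2r (receptors) and Ptgs1, Ptgs2 and Ptgis (synthases). They are 10 of the 35290 genes counted. All 10 symbols were found, and 7 of the 10 genes passed the filter on low counts and could be tested. Ptgfr, Ptgs2 and Ptgis did not pass and are described by their reads. The question put to them was whether the receptor of prostacyclin, Ptgir, is expressed in these cells, since 1 of the compounds applied, carbacyclin, is a stable analog of prostacyclin.

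Prostanoids are lipid signals made from arachidonic acid. The cyclooxygenases, encoded by Ptgs1 and Ptgs2, make an unstable intermediate, which terminal synthases such as prostacyclin synthase (Ptgis) turn into the separate prostanoids. Each prostanoid acts mainly, but not only, on its own G protein-coupled receptors: prostacyclin on Ptgir, prostaglandin E2 on Ptger1 to Ptger4, prostaglandin F2 alpha on Ptgfr and thromboxane A2 on Tbxa2r. Which of these receptors carbacyclin acted on in these cells was not tested. Ptgir, Ptger2 and Ptger4 are known to raise cyclic AMP, most forms of Ptger3 to lower it, and Ptger1, Ptgfr and Tbxa2r to act mainly through calcium. In lymphocytes prostaglandin E2 is the best-studied of these signals.

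RNA was sequenced in 37 libraries of C57BL/6 mouse pre-B cells of genotype Arf-/-;BCR-ABL1, that is, cells from adult bone marrow that lack Arf and were transformed by the BCR-ABL1 kinase, so every group shares both changes. IK6 cells carried the MIG-IK6 vector, which expresses a dominant-negative form of the transcription factor IKAROS, and MIG cells carried the empty vector, which expresses GFP. Each was given 1 µM N-oleoylethanolamine (NOE, a fatty acid amide), carbacyclin, bexarotene (a ligand of retinoid X receptors) or ATRA (all-trans retinoic acid), or the solvent DMSO. Groups held 4 libraries, apart from IK6 cells with carbacyclin, IK6 cells with bexarotene and MIG cells with bexarotene, which held 3. Neither how long the cells were treated nor how many cultures were transduced is stated in the labels, so an effect of IK6 and a difference between cultures cannot be told apart. Nothing says that replicates came from separate cultures. The p-values therefore measure only the spread between these libraries, and that spread may be technical.

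Library totals lay between 16.5 M and 80.4 M counts (median 35.1 M). Levels are in CPM, the usual count of a gene relative to the TMM-scaled library total, given per library or as mean ± SD over the libraries of a group. Changes are log2 fold changes ± SE with edgeR's adjusted p, called at 0.05, and a difference in response is the change in IK6 cells minus that in MIG cells. Ikzf1, the gene of IKAROS, averaged 382 to 508 CPM in the 5 groups of IK6 cells and 228 to 357 CPM in the 5 groups of MIG cells. All 10 pre-B markers were expressed, with summed levels of 3750 to 8270 CPM, whereas 6 T and NK cell markers summed to at most 0.382 CPM and 4 mast cell and basophil markers to at most 0.177 CPM. The 6 platelet and megakaryocyte markers summed to at most 2.73 CPM, and Gp1bb and Ppbp had no count. The 9 myeloid markers, of which Itgam and Lyz2 were the most abundant, summed to 5.07 to 22.0 CPM in IK6 cells and 5.04 to 21.7 CPM in MIG cells, and the sum moved with treatment. It was 18.2 to 22.0 CPM in IK6 cells with NOE, 13.2 to 17.6 with carbacyclin, 7.16 to 9.54 with bexarotene, 12.2 to 13.0 with ATRA and 5.07 to 6.63 with DMSO. The sum in MIG cells was 20.1 to 21.7 CPM with NOE, 10.7 to 19.4 with carbacyclin, 11.1 to 12.8 with bexarotene, 16.5 to 18.7 with ATRA and 5.04 to 5.86 with DMSO. Its part in the results was not tested, and in bulk samples fewer cells of a type and less RNA per cell cannot be told apart. The 6 endothelial and stromal markers summed to 46.5 to 117 CPM, most of it Pecam1, which leukocytes also express.

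In 3 libraries of MIG cells, DMSO replicate 3, carbacyclin replicate 4 and bexarotene replicate 3, ribosomal protein genes took 12.5 to 15.5% of counts, against at most 11.5% in the other 34. Calls of the 10 genes, and of the pathway genes named with carbacyclin, that change without these 3 libraries are given where they occur.

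Promoter windows of 3 members are shown first: Ptgir, the receptor in question, and Tbxa2r and Ptgs1, the receptor and the synthase that moved in opposite directions with carbacyclin and NOE. Each window is the 250 bases before a transcription start in RefSeq (build GRCm38.p6), 5′ to 3′ on the gene's strand. They lie at chr7:16906240-16906489 for Ptgir, chr10:81328018-81328267 for the more distal of the 2 starts of Tbxa2r, and chr2:36230176-36230425 for Ptgs1, all on the plus strand. Capitals mark matches, on either strand, to the nuclear receptor half-site AGGTCA, the cyclic AMP half-site TGACG and the IKAROS core TGGGAA.
Ptgir: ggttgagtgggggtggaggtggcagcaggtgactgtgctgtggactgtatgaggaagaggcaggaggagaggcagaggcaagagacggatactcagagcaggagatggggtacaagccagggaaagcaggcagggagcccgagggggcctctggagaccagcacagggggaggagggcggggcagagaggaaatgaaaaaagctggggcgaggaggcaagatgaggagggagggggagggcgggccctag
Tbxa2r: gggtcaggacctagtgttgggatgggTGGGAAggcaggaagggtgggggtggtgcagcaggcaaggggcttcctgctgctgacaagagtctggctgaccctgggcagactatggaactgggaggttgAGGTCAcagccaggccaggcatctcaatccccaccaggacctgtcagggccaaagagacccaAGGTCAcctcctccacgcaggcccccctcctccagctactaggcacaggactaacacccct
Ptgs1: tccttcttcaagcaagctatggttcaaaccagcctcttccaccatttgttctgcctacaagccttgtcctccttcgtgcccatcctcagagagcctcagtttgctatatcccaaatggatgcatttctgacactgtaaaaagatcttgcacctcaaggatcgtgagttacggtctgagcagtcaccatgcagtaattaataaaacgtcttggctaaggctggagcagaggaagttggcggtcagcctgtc

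The Tbxa2r window holds 2 matches to AGGTCA and 1 to TGGGAA, and the windows of Ptgir and Ptgs1 hold none of the 3 motifs. A window at the other Tbxa2r start holds 1 match to AGGTCA, 1 to TGACG and 2 to TGGGAA. Windows were found for 8 of the 10 members. Among the others Ptgfr had 1 match to AGGTCA, and Ptger2, Ptger3, Ptger4 and Ptgs2 had none. Of 32851 windows of this length in the table, 14% held AGGTCA, 17.8% TGACG and 21.6% TGGGAA. The full cyclic AMP element TGACGTCA, in 1.55% of windows, and direct repeats of AGGTCA spaced by 1 or 5 bases, in 0.0335% and 0.00913%, were in no member's window. These matches describe the letters of the windows and no binding.

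Reads of Ptgir were found in every library. They numbered 2754, of which 2321 were in the 18 IK6 libraries and 433 in the 19 MIG libraries. Ptgir was higher in IK6 cells than in MIG cells under every treatment, and in both cell types it was lower with carbacyclin and higher with bexarotene and NOE than with DMSO.

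In IK6 cells, Ptgir stood at 6.49, 5.22, 5.65 and 5.44 CPM with NOE, at 1.15, 1.32 and 0.928 CPM with carbacyclin and at 5.91, 6.39 and 4.83 CPM with bexarotene. It stood at 1.56, 1.10, 1.43 and 1.49 CPM with ATRA and at 2.13, 2.95, 2.70 and 2.66 CPM with DMSO. The NOE and bexarotene libraries were all above, and the carbacyclin and ATRA libraries all below, the DMSO libraries.

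In MIG cells, Ptgir stood at 1.41, 1.58, 1.44 and 1.26 CPM with NOE, at 0.262, 0.087, 0.151 and 0.0956 CPM with carbacyclin and at 0.794, 0.902 and 0.808 CPM with bexarotene. It stood at 0.220, 0.237, 0.307 and 0.267 CPM with ATRA and at 0.353, 0.297, 0.666 and 0.339 CPM with DMSO. The carbacyclin values rest on 3 to 7 reads per library and did not overlap those with DMSO, while the ATRA libraries did.

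**Figure D1:**
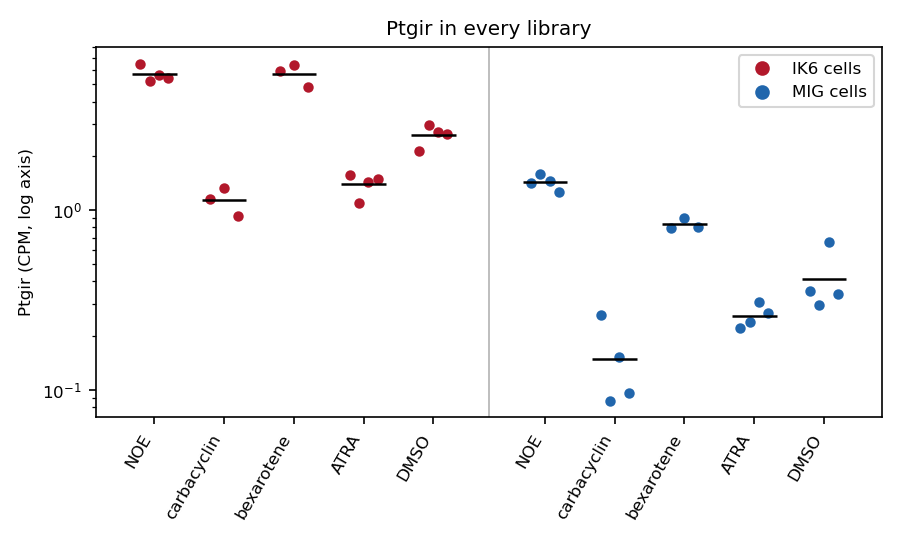
Ptgir in CPM (log axis) in each of the 37 libraries, IK6 groups left and MIG groups right; points are libraries and lines are group means. Every IK6 library lies above every MIG library of the same treatment, and the lowest means in each cell type, 1.13 CPM in IK6 cells and 0.149 CPM in MIG cells, are those with carbacyclin.

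With carbacyclin, Ptgir fell by 1.19 ± 0.18 in IK6 cells (2.28-fold lower, adjusted p = 1.44e-06) and by 1.60 ± 0.30 in MIG cells (3.02-fold lower, adjusted p = 4.38e-05). With bexarotene it rose by 1.12 ± 0.15 in IK6 cells (adjusted p = 2e-07) and by 1.08 ± 0.23 in MIG cells (adjusted p = 0.000283). With NOE it rose by 1.12 ± 0.14 in IK6 cells (adjusted p = 3.21e-08) and by 1.85 ± 0.20 in MIG cells (adjusted p = 2.4e-09). Within each cell type the mean level of Ptgir was thus lowest with the prostacyclin analog, but the carbacyclin and ATRA libraries overlapped and were not tested against each other. With ATRA it fell by 0.93 ± 0.15 in IK6 cells (adjusted p = 6.94e-06), and the difference of -0.64 ± 0.28 in MIG cells did not pass the test (adjusted p = 0.109).

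These comparisons share the DMSO libraries of their cell type. The difference between IK6 and MIG cells in the response of Ptgir to NOE was -0.72 ± 0.25 (adjusted p = 0.0638), and without the 3 libraries high in ribosomal protein it was -1.05 (adjusted p = 0.00527). Most of that shift is also seen without MIG DMSO replicate 3 alone, at -1.01 (adjusted p = 0.00684), and several other alternatives also passed, for example total count scaling at -0.82 (0.0323). The differences in response to carbacyclin (0.41 ± 0.34), bexarotene (0.04 ± 0.33) and ATRA (-0.29 ± 0.34) did not pass the test.

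Ptgir was 3.97-fold higher in IK6 than in MIG cells with NOE, 8.70-fold with carbacyclin, 6.72-fold with bexarotene, 5.37-fold with ATRA and 6.55-fold with DMSO. In log2 these are 1.99 ± 0.15, 3.12 ± 0.26, 2.75 ± 0.18, 2.42 ± 0.23 and 2.71 ± 0.19, with adjusted p between 8.9e-14 and 1.37e-10, and no IK6 library overlapped a MIG library of the same treatment. Ordered by mean level, IK6 cells with bexarotene (5.71 CPM) and NOE (5.70 CPM) overlapped at the top. IK6 cells with DMSO (2.61 CPM) stood apart below them. MIG cells with NOE (1.42 CPM), IK6 cells with ATRA (1.39 CPM) and IK6 cells with carbacyclin (1.13 CPM) each overlapped the next in order, and so did the lowest 3, MIG cells with DMSO, ATRA and carbacyclin.

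Over the 10 group means, the genes whose log2 level was most like that of Ptgir among 13242 candidates were Mctp1 (Pearson r = 0.976), Atg4c (0.973) and Zfp551 (0.972). Group means share libraries, depth scaling and controls, so these values only describe the pattern.

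Across the family, 6 of 7 tested members passed the test with NOE in IK6 cells, where 40.9% of all tested genes did, 6 with carbacyclin (39.6%), 5 with bexarotene (41.8%) and 5 with ATRA (43.6%). In MIG cells the counts were 6 with NOE (44.9%), 4 with carbacyclin (48%), 5 with bexarotene (38.1%) and 4 with ATRA (41.8%). Over the 4 compounds this makes 22 of 28 in IK6 cells (41.5%) and 19 of 28 in MIG cells (43.2%). The 5 with bexarotene and the 22 in IK6 cells include a rise of Ptger3 that was built into its being tested and says nothing against these shares. Each compound changed a large part of all tested genes, and a count of 4 among 7 stands close to that background. The 4 with carbacyclin in MIG cells became 5 without the 3 libraries high in ribosomal protein, through Ptger3 (adjusted p = 0.027), which then had 0 reads in the MIG carbacyclin libraries left. Between IK6 and MIG cells, 5 of 7 passed with NOE (32.6%), 6 with carbacyclin (32.2%), 6 with bexarotene (21%), 6 with ATRA (40.9%) and 7 with DMSO (26%), in all 30 of 35 (30.5%). Of these 30, 5 are Ptger3, which was tested only because it is high in IK6 cells and so had to differ, and say nothing against that background. The counts also hold Ptger1, whose reads may not all be from its transcript. Of the differences in response, 3 passed for NOE (8.82%), 0 for carbacyclin (8.83%), 2 for bexarotene (5.69%) and 2 for ATRA (9.78%), in all 7 of 28 (8.28%). For carbacyclin, 3 of the 7 had an unadjusted p under 0.05 in edgeR, and DESeq2 called 1, Ptger4. For carbacyclin, the median log2 change of the 6 tested receptors was -0.305 in IK6 cells and -0.0676 in MIG cells, against 0.0102 and 0.022 over all tested genes.

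**Figure D2:**
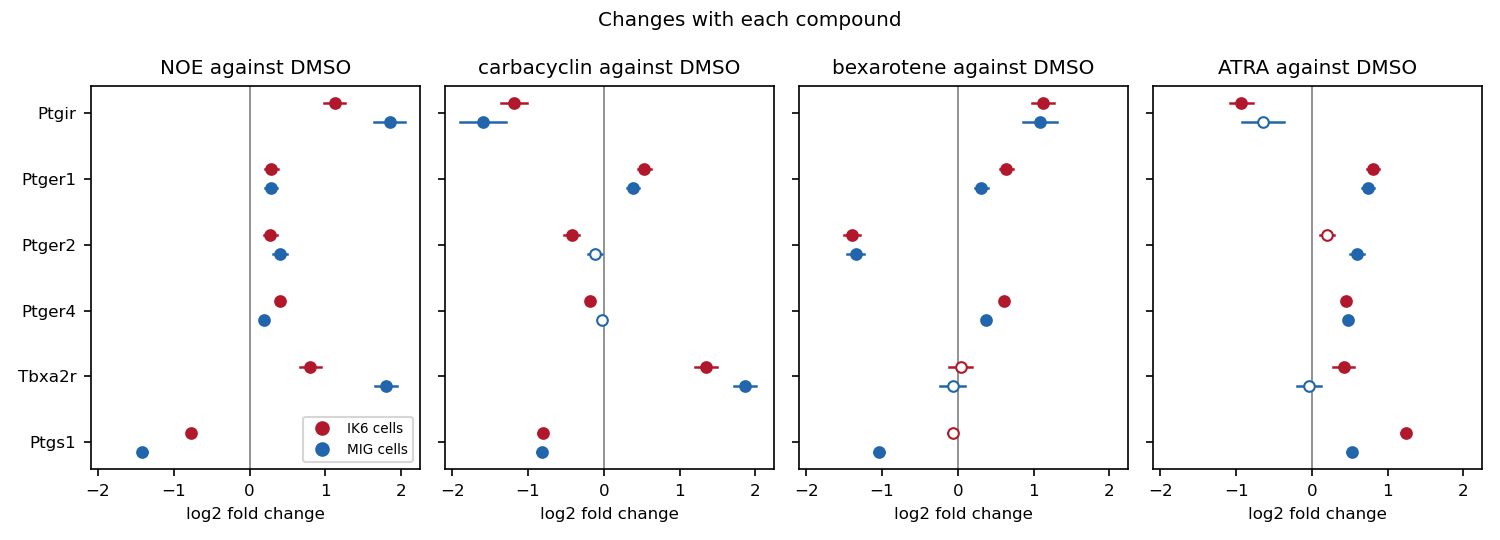
Log2 fold changes against DMSO of 6 tested members for each compound, in IK6 cells (red) and MIG cells (blue); bars are ± 1 SE and filled points passed the test at an adjusted p of 0.05. With carbacyclin, Ptgir (-1.19 in IK6 cells, -1.60 in MIG cells) and Ptgs1 lie left of 0 and Tbxa2r (1.35 in IK6 cells, 1.87 in MIG cells) right of it. Ptger3 is left out because its reads are few.

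Levels of different genes were compared per kilobase of exon, using lengths from GENCODE M21 on GRCm38, another build than the mm9 of the files. With DMSO, Ptger4 had 12.4 CPM per kb in IK6 cells and 16.7 in MIG cells, Ptger1 9.18 and 13.7, Tbxa2r 5.78 and 2.50, and Ptger2 1.78 and 1.42. Ptgir had 0.783 CPM per kb in IK6 cells and 0.124 in MIG cells, and Ptger3 had 0.0387 and 0.00681. Ptgir was thus the fifth of the 7 receptors by this measure in both cell types with DMSO, in an order that counts Ptger1 (71% of exon bases not its own alone) and Ptger4 (15.3% shared with Gm15937) at levels that may hold reads of other transcripts. In IK6 cells with bexarotene it stood above Ptger2, at 1.71 against 0.681 CPM per kb.

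**Figure D3:**
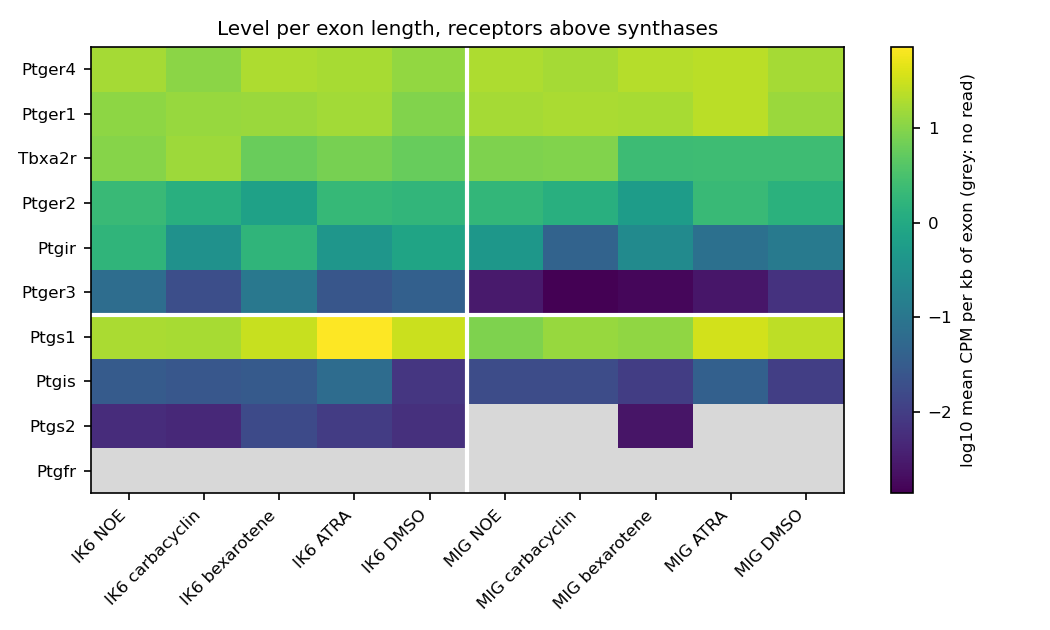
Log10 of the mean CPM per kilobase of exon of all 10 members in the 10 groups, IK6 groups left, receptors above synthases; grey marks groups with no read. Ptger4, Ptger1 and Ptgs1 are high in all groups, up to 71.6 CPM per kb for Ptgs1 in IK6 cells with ATRA, and Ptgfr has no read in any.

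Ptger4, the cyclic AMP-raising prostaglandin E2 receptor that is prominent in lymphocytes, was lower in IK6 than in MIG cells under all 5 treatments and rose with NOE, bexarotene and ATRA in both. With carbacyclin it stood at 71.9, 74.6 and 70.6 CPM in IK6 cells, against 82.2, 84.0, 85.0 and 78.4 CPM with DMSO. In MIG cells it stood at 111, 109, 105 and 112 CPM with carbacyclin, against 109, 109, 114 and 113 CPM with DMSO. The groups were apart in IK6 cells and overlapped in MIG cells, with a fall of 0.19 ± 0.04 in IK6 cells (adjusted p = 0.000393) and a difference of -0.02 ± 0.04 in MIG cells (adjusted p = 0.62). The difference between these responses was -0.16 ± 0.06 (adjusted p = 0.0631); DESeq2 gave an adjusted p of 0.0124 and the stricter filter 0.02.

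Ptger4 averaged 109 ± 3.95 CPM with NOE, 125.5 ± 2.19 with bexarotene and 113 ± 0.578 with ATRA in IK6 cells, against 82.4 ± 2.89 with DMSO. In MIG cells it averaged 127 ± 3.64 CPM with NOE, 144 ± 3.37 with bexarotene and 154 ± 2.44 with ATRA, against 111 ± 2.41 with DMSO. Every one of these 6 rises passed the test, and no library of a compound overlapped one with DMSO.

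The rises of Ptger4 in IK6 cells were 0.40 ± 0.04 with NOE, 0.61 ± 0.04 with bexarotene and 0.45 ± 0.04 with ATRA, and in MIG cells 0.19 ± 0.04, 0.38 ± 0.04 and 0.47 ± 0.04. The rise with bexarotene was larger in IK6 cells by 0.23 ± 0.06 (adjusted p = 0.0112), and that with NOE by 0.21 ± 0.05 (adjusted p = 0.00809). Both calls were lost with total count scaling, at adjusted p = 0.229 and 0.421, and that with NOE also without the 3 libraries high in ribosomal protein (0.0562). The gene's pattern over the 10 groups was most like those of Unc93b1 (r = 0.985), Wbp1 (0.971) and H2-D1 (0.964). The difference between IK6 and MIG cells was -0.22 with NOE, -0.59 with carbacyclin, -0.20 with bexarotene, -0.45 with ATRA and -0.43 with DMSO. The call with bexarotene was lost when only the groups compared were fitted (adjusted p = 0.0622). In GENCODE M21 the processed pseudogene Gm15937, on the opposite strand, shares 1015 of the 6648 exon bases of Ptger4. Counts given to Gm15937 averaged at most 0.0314 CPM in any group, and its part in the counts of Ptger4 was not tested.

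Ptger2, the other cyclic AMP-raising prostaglandin E2 receptor, fell with bexarotene in both cell types. It stood at 3.36, 3.66 and 3.59 CPM with bexarotene in IK6 cells, against 9.42, 9.38, 9.16 and 9.04 CPM with DMSO. MIG cells had 2.49, 3.26 and 2.86 CPM with bexarotene, against 6.67, 7.60, 7.37 and 7.89 CPM with DMSO. No bexarotene library overlapped a DMSO library, and the fall was 1.39 ± 0.11 in IK6 cells (adjusted p = 2.32e-12) and 1.35 ± 0.11 in MIG cells (adjusted p = 8.24e-12).

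With carbacyclin Ptger2 averaged 6.89 ± 0.164 CPM in IK6 cells, a fall of 0.42 ± 0.10 (adjusted p = 0.000914). In MIG cells it averaged 6.82 ± 0.985 CPM, a difference of -0.11 ± 0.09 that did not pass the test, and replicate 4 stood at 5.35 CPM against 7.17 to 7.45 CPM in the other 3. The difference between the cell types in that response was -0.31 ± 0.14 (adjusted p = 0.181) and had an adjusted p of 0.0138 without that library and of 0.0301 without all 3 libraries high in ribosomal protein. NOE raised Ptger2 by 0.28 ± 0.09 in IK6 cells (adjusted p = 0.0125, or 0.0767 with total count scaling and 0.056 without IK6 NOE replicate 4) and by 0.40 ± 0.09 in MIG cells (adjusted p = 0.000499). ATRA raised it by 0.59 ± 0.09 in MIG cells (adjusted p = 2.65e-06), and the difference of 0.20 ± 0.09 in IK6 cells had an adjusted p of 0.0717 (0.0403 without the 3 libraries high in ribosomal protein). The difference between those ATRA responses was -0.40 ± 0.13 (adjusted p = 0.0445), a call lost in several alternatives, for example 0.0952 without MIG ATRA replicate 4 and 0.0949 without IK6 ATRA replicate 4.

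Between IK6 and MIG cells, Ptger2 was higher by 0.32 ± 0.09 with DMSO (adjusted p = 0.00693) and did not pass the test with the other 4 treatments. Genes with a similar pattern over the groups included Dhcr7, an enzyme of cholesterol synthesis (r = 0.951), and Acsl3, an acyl-CoA synthetase (0.938). In GENCODE M21 the antisense gene Gm17173 shares 246 of the 5193 exon bases of Ptger2, and reads there cannot be assigned to a strand. Counts at Gm17173 fell with bexarotene too, by 0.95 ± 0.21 in IK6 cells and 0.82 ± 0.19 in MIG cells, and their response to ATRA also differed between the cell types (-0.98 ± 0.24, adjusted p = 0.00614). Their part in the values of Ptger2 was not tested.

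Ptger1, which signals mainly through calcium, was counted at 45.8 to 133 CPM, but its level is uncertain. In GENCODE M21, 71% of its exon bases are not its own alone, and the library protocol does not mark strand. Counts given for Ptger1 may therefore hold reads that are not from its transcript, and the share of such reads was not tested.

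With carbacyclin, counts at Ptger1 averaged 72.5 ± 6.45 CPM in IK6 cells and 98.0 ± 9.92 CPM in MIG cells, against 50.1 ± 3.66 CPM in IK6 cells and 75.0 ± 2.03 CPM in MIG cells with DMSO. They rose by 0.53 ± 0.09 in IK6 cells (adjusted p = 7.13e-06) and by 0.39 ± 0.08 in MIG cells (adjusted p = 0.000154).

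Ptger1 counts also rose with NOE (0.29 ± 0.08 in IK6 cells, 0.28 ± 0.08 in MIG cells), bexarotene (0.64 ± 0.09 and 0.31 ± 0.09) and ATRA (0.81 ± 0.08 and 0.74 ± 0.08). They were lower in IK6 than in MIG cells by 0.25 to 0.58 under the 5 treatments. With bexarotene the lower level of Ptger1 was at the threshold (adjusted p = 0.0499), and several alternatives put it above, for example 0.053 with RLE scaling. The most similar patterns were those of Dedd2 (r = 0.978), Chrnb1 (0.971) and Agtrap (0.968).

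Ptger3, most forms of which lower cyclic AMP, had 199 reads in all 18 IK6 libraries and 11 reads in 8 of 19 MIG libraries. It passed the filter only through IK6 cells with bexarotene and NOE, where it is high. A difference between the cell types, and a rise over DMSO in IK6 cells with these compounds, were thus built into its being tested. In IK6 cells it stood at 0.435, 0.245, 0.331 and 0.5 CPM with NOE, at 0.107, 0.0294 and 0.186 CPM with carbacyclin and at 0.385, 0.765 and 0.724 CPM with bexarotene. It stood at 0.142, 0.162, 0.149 and 0.118 CPM with ATRA and at 0.234, 0.128, 0.300 and 0.218 CPM with DMSO. The libraries of MIG cells stood at 0 to 0.102 CPM.

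The pooled count of Ptger3 over all treatments was 17.6 times higher in IK6 than in MIG cells per read sequenced, with an exact 95% interval of 9.64 to 35.9 that covers counting error only. By treatment, IK6 and MIG cells had 68 and 3 reads with NOE, 10 and 1 with carbacyclin, 60 and 1 with bexarotene, 26 and 1 with ATRA, and 35 and 5 with DMSO. The pooled ratio with DMSO was 6.01 (2.34 to 19.6) and that with bexarotene 64.8 (11.2 to 2600). Fitted fold changes against so few reads depend on the model's prior count and are not given.

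Within IK6 cells Ptger3 rose with bexarotene by 1.38 ± 0.38 (adjusted p = 0.00324), and the groups did not overlap. Since Ptger3 was tested only through the bexarotene and NOE groups, this call says nothing against the background share. The differences with NOE (0.76 ± 0.36, adjusted p = 0.094, or 0.0461 without IK6 NOE replicate 2), carbacyclin (-1.11 ± 0.54, adjusted p = 0.106) and ATRA (-0.59 ± 0.43, adjusted p = 0.283) did not pass the test. The call for IK6 against MIG with carbacyclin was lost without IK6 carbacyclin replicate 3 (adjusted p = 0.0582).

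Tbxa2r, the thromboxane receptor, was highest with carbacyclin in IK6 cells. It stood at 31.9, 29.1 and 24.0 CPM with carbacyclin in IK6 cells, against 11.8, 11.2, 10.4 and 11.0 CPM with DMSO. MIG cells had 15.7, 16.3, 16.0 and 21.8 CPM with carbacyclin, against 3.63, 4.87, 6.11 and 4.60 CPM with DMSO. All carbacyclin libraries lay above all DMSO libraries of their cell type, and the highest in MIG cells, replicate 4, is 1 of the 3 libraries high in ribosomal protein.

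Tbxa2r rose with carbacyclin by 1.35 ± 0.14 in IK6 cells (2.55-fold, adjusted p = 2.17e-09) and by 1.87 ± 0.14 in MIG cells (3.65-fold, adjusted p = 1.27e-12). The difference of -0.51 ± 0.20 between these rises had an adjusted p of 0.126, or 0.0261 without the 3 libraries high in ribosomal protein. With NOE it stood at 20.6, 19.8, 16.2 and 20.8 CPM in IK6 cells and at 17.8, 17.2, 16.7 and 15.1 CPM in MIG cells. It rose by 0.80 ± 0.13 in IK6 cells (adjusted p = 8.24e-06) and by 1.80 ± 0.14 in MIG cells (adjusted p = 2.24e-12), and the rise was smaller in IK6 cells by 1.00 ± 0.20 (adjusted p = 0.000577).

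Bexarotene left Tbxa2r at 11.4 ± 0.298 CPM in IK6 cells and 4.55 ± 1.47 CPM in MIG cells, with differences of 0.04 ± 0.15 and -0.07 ± 0.16 that did not pass the test. ATRA raised it by 0.42 ± 0.14 in IK6 cells (adjusted p = 0.0119), and the difference of -0.04 ± 0.16 in MIG cells did not pass. IK6 cells were higher than MIG cells by 0.70 ± 0.14 with carbacyclin, 1.32 ± 0.17 with bexarotene, 1.67 ± 0.15 with ATRA and 1.21 ± 0.14 with DMSO, while 0.21 ± 0.13 with NOE did not pass (adjusted p = 0.235). Its pattern over the groups was most like those of Gm17322, a non-coding RNA (r = 0.971), Slc5a9 (0.960) and Tnfrsf21 (0.959).

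**Figure D4:**
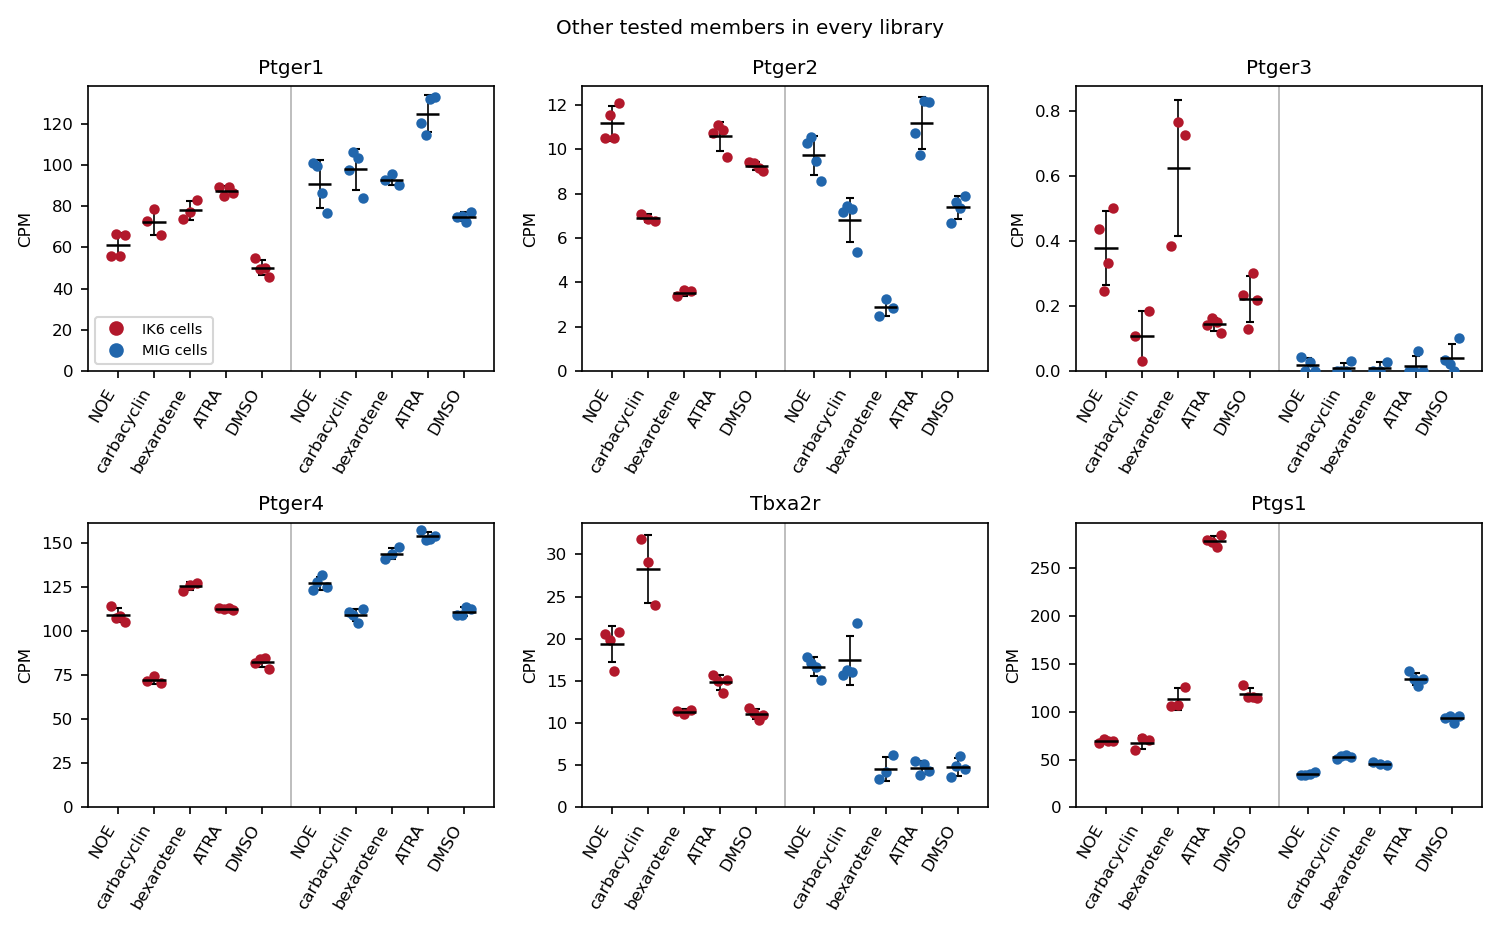
Levels in CPM of 6 members in each library, IK6 groups left and MIG groups right; points are libraries, lines means and bars ± 1 SD. Ptger3 is near 0 in MIG cells (at most 0.102 CPM), Ptger2 is lowest with bexarotene in both cell types, and Ptgs1 is highest with ATRA in both.

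Ptgfr, the receptor of prostaglandin F2 alpha, had 0 reads in all 37 libraries, which allows up to 0.00214 CPM over all libraries (3 counts, counting error only). The 2 receptors of prostaglandin D2, which are not among the 10 genes, were also near the floor, with 11 reads of Ptgdr and 72 of Ptgdr2 in all.

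Ptgs1, the constitutive cyclooxygenase, was the most abundant synthase. Per length it was the highest of all 10 genes in each of the 5 groups of IK6 cells and in MIG cells with ATRA or DMSO. With ATRA it stood at 279, 277, 272 and 285 CPM in IK6 cells, against 128, 115, 115 and 114 CPM with DMSO. MIG cells had 142, 134, 127 and 134 CPM with ATRA, against 93.3, 95.9, 88.6 and 95.4 CPM with DMSO. The rise was 1.23 ± 0.06 in IK6 cells (2.35-fold, adjusted p = 4.18e-18) and 0.52 ± 0.06 in MIG cells (1.44-fold, adjusted p = 3.73e-09), larger in IK6 cells by 0.71 ± 0.08 (adjusted p = 1.67e-07).

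With carbacyclin Ptgs1 averaged 67.6 ± 6.41 CPM in IK6 cells and 53.0 ± 1.88 CPM in MIG cells. It fell by 0.81 ± 0.06 in IK6 cells and by 0.82 ± 0.06 in MIG cells (adjusted p = 2.54e-12 and 1.48e-13), and the difference between these falls was 0.01 ± 0.08, with an interval of -0.16 to 0.18. With NOE it averaged 69.2 ± 1.67 CPM in IK6 cells and 34.9 ± 1.80 CPM in MIG cells, falls of 0.77 ± 0.06 and 1.42 ± 0.06. Those falls differed by 0.65 ± 0.08 (adjusted p = 7.56e-07).

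With bexarotene Ptgs1 stood at 106, 106 and 126 CPM in IK6 cells, overlapping the DMSO libraries, and at 47.3, 45.2 and 43.8 CPM in MIG cells, below them. The change was -0.07 ± 0.06 in IK6 cells (adjusted p = 0.409) and a fall of 1.04 ± 0.06 in MIG cells (adjusted p = 1.21e-14), and the responses differed by 0.97 ± 0.09 (adjusted p = 5.72e-09). Ptgs1 was higher in IK6 than in MIG cells under all 5 treatments, by 0.99 with NOE, 0.35 with carbacyclin, 1.31 with bexarotene, 1.05 with ATRA and 0.34 with DMSO. In GENCODE M21, 148 of its 3884 exon bases are shared with Gm43621 on the opposite strand. Its pattern over the groups was most like those of Insig1, a regulator of sterol synthesis (r = 0.963), 1110034A24Rik (0.960) and 1700003M07Rik, a non-coding RNA (0.958).

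**Figure D5:**
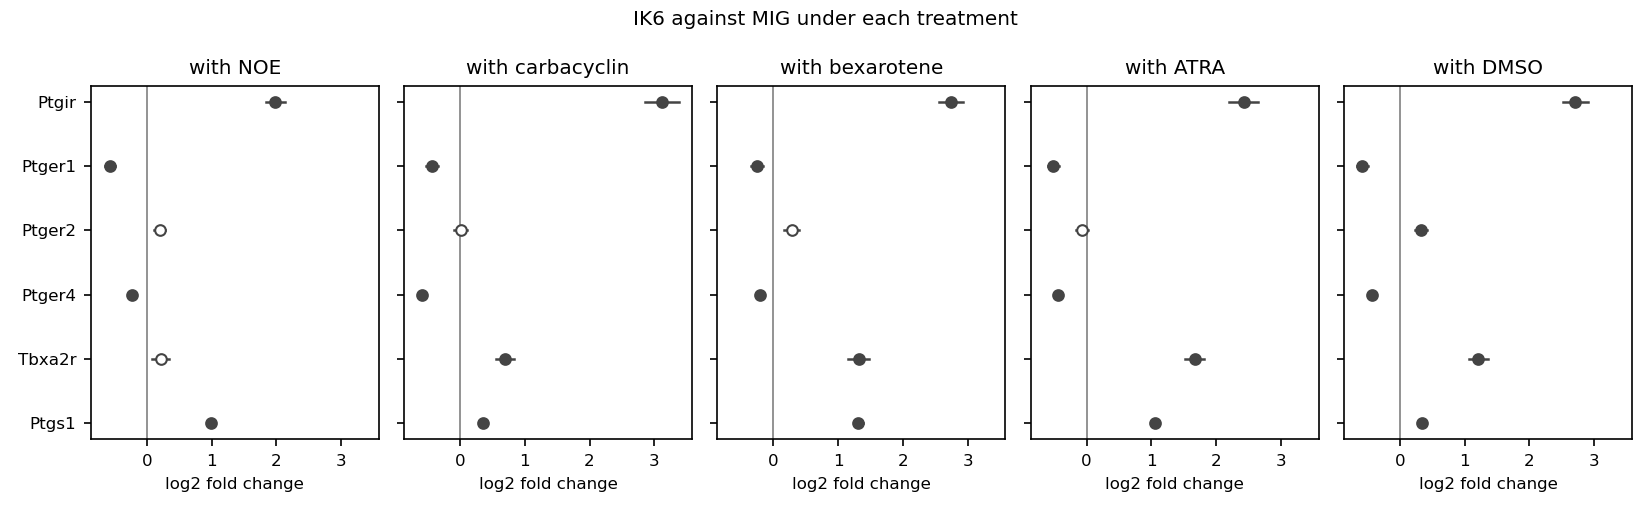
Log2 fold changes of IK6 against MIG cells for 6 tested members under each treatment; bars are ± 1 SE and filled points passed the test at an adjusted p of 0.05. Ptgir lies right of 0 in all 5 panels (1.99 to 3.12), Ptgs1 too (0.34 to 1.31), and Ptger4 lies left of 0 in all 5.

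Ptgs2, the inducible cyclooxygenase, was close to unread, with 28 reads in 13 of 18 IK6 libraries and 1 read in 19 MIG libraries. The pooled ratio of IK6 to MIG cells was 27.3, with an exact 95% interval of 4.51 to 1116. Without the low-count filter edgeR called it in 0 of the 17 comparisons, with adjusted p of 0.131 or more.

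Ptgis, the prostacyclin synthase, had 61 reads in IK6 cells and 37 in MIG cells, at most 0.198 CPM in any library. With ATRA in IK6 cells it had 7, 7, 6 and 5 reads, against 0, 1, 1 and 1 reads with DMSO. The pooled ratio there was 7.43 (2.27 to 38.4), and in the fit without the filter this was its only call against DMSO (adjusted p = 0.00735). In GENCODE M21, 156 of its 2567 exon bases are shared with the opposite-strand transcript 1110018N20Rik.

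The other genes of the pathway were described from lists. Of 3 genes that release arachidonic acid, all were tested. Mgll, monoacylglycerol lipase, rose with carbacyclin by 1.09 ± 0.09 in IK6 cells and 1.28 ± 0.09 in MIG cells, and Pla2g4a, the cytosolic phospholipase A2, fell by 0.50 ± 0.08 and 0.90 ± 0.08. Mgll averaged 59.5 ± 4.62 CPM with carbacyclin in IK6 cells and 31.6 ± 4.47 CPM in MIG cells. Pla2g6, a calcium-independent phospholipase, fell with carbacyclin in IK6 cells by 0.44 ± 0.14 (adjusted p = 0.011, or 0.0582 without IK6 carbacyclin replicate 3).

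Of 10 terminal synthases and helpers, 8 were tested. With carbacyclin, 3 rose and 1 fell in IK6 cells, where 39.6% of all tested genes passed, and 2 rose and 1 fell in MIG cells (48%), so neither count stands far from the background. The median log2 changes were 0.249 and 0.215. Hpgds, a prostaglandin D synthase, fell with carbacyclin by 1.2 ± 0.19 in IK6 cells and 1.21 ± 0.17 in MIG cells and rose with the other 3 compounds in both. Tbxas1, thromboxane synthase, rose with carbacyclin by 2.27 ± 0.32 in IK6 cells and 1.67 ± 0.36 in MIG cells, at means of 0.914 and 0.445 CPM. With DMSO it reached at most 0.321 CPM in IK6 libraries and 0.169 CPM in MIG libraries. Tbxas1 passed the filter only through groups given a compound, so a rise over DMSO was built into its being tested. It is among the 3 and the 2 rises counted above and says nothing against the background shares. Ptges, an inducible prostaglandin E synthase, rose in IK6 cells by 1.88 ± 0.36 with carbacyclin and averaged at most 0.384 CPM in any group. It passed the filter only through the IK6 carbacyclin libraries (0.334 to 0.471 CPM), with at most 0.297 CPM in libraries of other groups. This rise of Ptges was thus built into its being tested. It is 1 of the 3 counted above and says nothing against the background share. Ptges3, a prostaglandin E synthase and HSP90 cochaperone, rose by 0.21 ± 0.08 in IK6 cells and 0.19 ± 0.08 in MIG cells. Neither rise of Ptges3 was stable: that in IK6 cells had an adjusted p of 0.21 without IK6 carbacyclin replicate 3, and that in MIG cells 0.137 without the 3 libraries high in ribosomal protein.

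Among breakdown genes, Ptgr1, a prostaglandin reductase, rose with carbacyclin by 0.62 ± 0.12 in IK6 cells and 0.60 ± 0.11 in MIG cells, and Ptgr2 rose by 0.16 ± 0.06 in MIG cells, a call lost without the 3 libraries high in ribosomal protein (adjusted p = 0.0755). Hpgd, which starts the breakdown of prostaglandins, had 5 reads in all. Of the transporters, Abcc4 rose with bexarotene in IK6 cells by 0.42 ± 0.06, and Slco2a1 rose with ATRA by 1.86 ± 0.29 in IK6 cells and 1.13 ± 0.30 in MIG cells. Slco2a1 averaged 0.645 CPM in IK6 cells and 0.616 CPM in MIG cells with ATRA, against 0.174 and 0.271 CPM with DMSO. It passed the filter only through the groups given ATRA or bexarotene, so a rise over DMSO with these compounds was built into its being tested.

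Of 28 genes of G proteins and cyclic AMP signalling, 24 were tested. With carbacyclin 7 rose and 2 fell in IK6 cells (39.6% of all tested genes passed) and 8 rose and 5 fell in MIG cells (48%), counts close to the background, with medians of 0.00189 and 0.0555 beside 0.0102 and 0.022 over all genes. Crem, a cyclic AMP-responsive transcription factor, averaged 63.9 ± 1.60 CPM with carbacyclin in IK6 cells, against 13.9 ± 0.722 CPM with DMSO. In MIG cells it averaged 70.8 ± 11.7 CPM with carbacyclin, against 11.2 ± 0.662 CPM with DMSO. It rose by 2.20 ± 0.08 and 2.66 ± 0.08. The rise was smaller in IK6 cells by 0.46 ± 0.11 (adjusted p = 0.00691, or 0.0709 when only the groups compared were fitted).

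The phosphodiesterases Pde4b and Pde3b, which break down cyclic AMP, rose with carbacyclin too. Pde4b rose by 1.34 ± 0.06 in IK6 cells and 1.75 ± 0.05 in MIG cells, and the rise was smaller in IK6 cells by 0.41 ± 0.08 (adjusted p = 0.000326). Pde3b rose by 0.85 ± 0.09 and 1.14 ± 0.08. Prkar1b, a regulatory subunit of protein kinase A, fell by 1.18 ± 0.47 in IK6 cells and 2.14 ± 0.28 in MIG cells, at means of 0.108 and 0.248 CPM with carbacyclin, against 0.259 CPM in IK6 cells and 1.12 CPM in MIG cells with DMSO. The fall of Prkar1b in IK6 cells did not pass in DESeq2 (adjusted p = 0.0508) or without IK6 carbacyclin replicate 1 (0.194) or 3 (0.184), IK6 DMSO replicate 2 (0.126) or 4 (0.175), and was 1.99 without IK6 carbacyclin replicate 2. Crem rose with the other 3 compounds as well, by 0.48 to 1.16 in IK6 cells and 0.57 to 0.92 in MIG cells.

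Carbacyclin is also known as a ligand of PPAR delta. Ppard averaged 35.9 to 68 CPM over the groups, while Ppara had 37 reads and Pparg 9 reads in all. Ppard fell with carbacyclin in MIG cells by 0.63 ± 0.10, and in IK6 cells the difference of 0.15 ± 0.10 did not pass the test. Of 6 PPAR target genes 5 were tested, and all 5 rose with carbacyclin in both cell types, where 39.6% (IK6 cells) and 48% (MIG cells) of all tested genes passed, with medians of 2.39 in IK6 cells and 0.732 in MIG cells. Cpt1a, which brings fatty acids into mitochondria, rose by 2.39 ± 0.05 in IK6 cells and 2.38 ± 0.05 in MIG cells. Angptl4, an inhibitor of lipoprotein lipase, rose by 2.58 ± 0.22 and 0.50 ± 0.20, and Acadvl, a fatty acid oxidation enzyme, by 0.75 ± 0.09 and 0.73 ± 0.08. The rise of Angptl4 in MIG cells was 0.33 (adjusted p = 0.0817) without the 3 libraries high in ribosomal protein, and 0.22 (0.306) without MIG carbacyclin replicate 4 alone. Pdk4, a kinase that restrains pyruvate dehydrogenase, averaged 5.10 ± 0.372 CPM with carbacyclin in IK6 cells and 0.956 ± 0.0496 CPM in MIG cells, against a single read in all IK6 libraries and none in MIG libraries with DMSO. Pdk4 passed the filter only through groups given a compound, so a rise over DMSO was built into its being tested. The counts and medians of PPAR targets given here include Pdk4, which says nothing against the background shares. All 5 also rose with bexarotene in both cell types (41.8% of all tested genes passed in IK6 cells, 38.1% in MIG cells). In MIG cells the calls of Angptl4 and Acadvl with bexarotene were lost without bexarotene replicate 3 (adjusted p = 0.272 and 0.263), and that of Angptl4 also with the replicate number as a block (0.0527). With ATRA, 5 rose in IK6 cells (43.6%) and 3 in MIG cells (41.8%). With NOE, 0 rose in either cell type, and 1 fell in IK6 cells (40.9%) and 2 in MIG cells (44.9%).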

How the data were processed

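The deposited values are raw counts of reads per gene, for which the submitters' processing notes name BWA 0.5.9, HTSeq and mm9. Which annotation, counting mode and strand setting the authors used is not stated. Libraries followed the TruSeq RNA v2 protocol, per the labels, which does not mark strand. Reads where genes on opposite strands overlap therefore cannot be assigned by strand, and how such reads were counted is not known.

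Groups came from the labels. Counts of all 35290 genes were filtered with edgeR (minimum count 10, minimum total 15), leaving 15699, scaled by TMM and fitted with the robust quasi-likelihood model (10 group means, 27 residual degrees of freedom). Two-sided p-values were adjusted within each of 17 comparisons over every tested gene (Benjamini-Hochberg), with a threshold of 0.05. The SE is the absolute log2 change divided by the square root of F, and edgeR also keeps p above its Poisson limit. A count of 0 allows 3 counts, and 95% intervals of pooled ratios are exact binomial and cover counting error only. Likeness used log2 CPM (prior count 2) over genes reaching 1 CPM in a group.

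All 10 members were named, and of each pathway list at most 4 called genes with the smallest adjusted p. The members and lists were chosen with earlier results of these data known. Results for 2 other genes are not reported here. Libraries of a group differed beyond sampling noise in all 51 pairs (chi-square divided by its degrees of freedom, 2.32 to 243). Alternatives were DESeq2, other scalings and filters, the compared groups alone, a replicate block, leaving out the 3 libraries with over 12% ribosomal protein reads, and leaving out each library. Software was R 4.3.3, edgeR 4.0.16, limma 3.58.1, DESeq2 1.42.0, Python 3.11.15, pandas 2.3.3, numpy 2.4.6 and matplotlib 3.10.9.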

Additional observations from a re-analysis of the deposited data

Results flagged for a closer look

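Within groups of 4 libraries, 49 sets of values of the 7 tested members were checked for a library far from the other 3, and 6 were found, where chance gives about 1 in 20. That rate does not apply to 2 of the 6, single reads of Ptger3 against 0 in the others, which such a check marks by construction. Ptgir stood at 0.666 CPM in MIG DMSO replicate 3, against 0.297 to 0.353 in the others. In MIG carbacyclin replicate 4, Ptger2 stood at 5.35 CPM against 7.17 to 7.45, Tbxa2r at 21.8 CPM against 15.7 to 16.3, and Ptger3 at 0.0319 CPM, a single read, against 0. Ptger3 stood at 0.0614 CPM in MIG ATRA replicate 3, also a single read, against 0. Ptgs1 stood at 128 CPM in IK6 DMSO replicate 1, against 114 to 115. Of the 6, 4 lie in libraries high in ribosomal protein reads, whose part in these values was not tested.

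The response to a compound differed between IK6 and MIG cells in 7 cases by edgeR's test of the difference. For Ptgs1 the response in IK6 cells exceeded that in MIG cells by 0.71 with ATRA, 0.97 with bexarotene and 0.65 with NOE. For Tbxa2r the difference was -1.0 with NOE. For Ptger4 it was 0.23 with bexarotene and 0.21 with NOE, and for Ptger2 -0.40 with ATRA.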

How the results depend on the processing

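Of 119 pairs of a tested member and a comparison, 102 kept their call wherever they were tested, over 9 other settings and leaving out each of the 37 libraries. Of the 78 called pairs, 0 changed direction. Not every setting tested every pair, and a pair left untested counts as unchanged there. For compounds in MIG cells, the filter of 1 CPM in a group tested 24 of 28 pairs, and fitting only the compared groups tested 23. Of the 41 pairs not called, 8 had an estimate near 0 that changed sign in some setting. The number of calls was 19 of 28 for compounds in MIG cells (19 to 20 with 1 library left out), 22 of 28 in IK6 cells (21 to 23) and 30 of 35 between IK6 and MIG cells (29 to 31). The 7 calls among 28 differences in response became 4 without the low-count filter, where more genes were tested, and 6 to 10 with 1 library left out. DESeq2 gave 19, 22, 30 and 8 calls. Over 13 comparisons, same-numbered deviations correlated at -0.462 to 0.623, above 0.1 in 13 of 47 pairs, so the numbers were not taken to pair the samples. The exception was bexarotene against DMSO in MIG cells, with 0.27, 0.227 and 0.623, where the block changed no call of the 10 genes but ended that of Angptl4 (adjusted p = 0.0527); the replicates 3 of both groups are libraries high in ribosomal protein. With the replicate number as a block the calls were 19, 22, 29 and 7, and the call lost was Ptger1 in IK6 against MIG with bexarotene (adjusted p = 0.0584). The differences in response of Ptger4 with NOE and of Ptger2 with ATRA lost their call in several settings. Fitted values of Ptger3 against MIG cells moved by more than 1.5 times when 1 library was left out, over 11 reads in all MIG libraries. A mean of at least 1 CPM was reached in 56 of 100 pairs of member and group with either scaling of CPM. Depth limits Ptger3, Ptgs2, Ptgis and Ptgfr. The same settings, chosen after seeing the data, were tried for the 20 named pathway genes: of 127 calls 99 were kept wherever they were tested and 0 were reversed.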
